A study of Mus musculus with 54 samples.

Results

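The miR-7 family of microRNAs was described across the mouse small intestine, in 8 groups of small RNA libraries. MicroRNAs are short RNAs that pair with messenger RNAs, mostly through bases 2 to 8 of the microRNA (the seed), and lower the output of the messages they pair with. A microRNA hairpin is cut into a 5p and a 3p strand, of which usually the more abundant strand acts and the other is lost. miR-7 is best known from neurons and from endocrine cells of the pancreas and pituitary, and enteroendocrine cells are the hormone-producing cells of the gut lining. The members are the rows of the small RNA table named mir-7a or mir-7b without a suffix. They number 6 of 635 rows with such plain names, in a table of 2602 rows. Another 38 rows carry a member's name with a suffix of unstated meaning. Those rows held 0.205% to 6.67% of the family's total in a library and were not analysed further. Their share was 4.71% to 6.67% in the Cd24-Low and Lgr5-High libraries named below, and 1.52% at most in the other libraries. They weighed more beside the scarce 3p strands. The largest suffixed row of mir-7a-1-3p had a mean of 12.27 RPMMM, 40.02% of the plain row's mean. That share was 5.565% for mir-7a-2-3p and 0.7695% at most for a 5p strand. The 3p values below are those of the plain rows alone, and comparisons with the suffixed rows added were not tested.

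Sox9-EGFP is a fluorescent reporter of the gene Sox9, and its Low fraction of crypt cells was sorted from chow-fed, germ-free and conventionalized C57BL/6J mice, 4 libraries each. Germ-free mice live without microbes, and conventionalized mice were born germ-free and later received a microbiota. The Sox9-EGFP Negative fraction came from the same 4 chow-fed mice as the chow Low libraries, by the animal numbers in the column names. Further groups were Cd24-Low sorted cells (4 libraries), Lgr5-High sorted cells (2), dissected crypts (4) and dissected villi (4), all of strain C57BL/6J. Crypts are the proliferating pockets of the gut wall and villi its finger-like folds. No allele other than the EGFP reporter is given for these groups in the labels, and ages are not given for them. A further 2 APC mutant and 2 control samples, labelled as intestinal cells of C57BL/6J mice, entered only as group averages in the authors' deposited table. APC is a brake on Wnt signalling that is lost in most colorectal tumours, and the mutant allele is not named in the labels. Labels disagree in places: the source field of the Lgr5-High libraries reads Lgr4, and the columns of chow replicate 3 in the Low and Negative fractions name a high fat diet. Values are RPMMM, the authors' normalized unit, which sums to 1000000 over the rows of a library. Steps between low values put depth, in units of 1000000 steps, at 3.49 to 24.2 per library in the 24 libraries other than Cd24-Low and Lgr5-High. In 23 of those 24 libraries the lowest listed value lay at 20 to 22 steps, so that a row listed at 0 is below a minimum rather than shown to be absent.

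The family's sequences set what the table can tell apart. RefSeq (GRCm38.p6) places 3 hairpins in the genome. Mir7-1 lies at chr13:58392779-58392886 on the minus strand, inside an intron of Hnrnpk, a gene for an RNA-binding protein read from the same strand. Mir7-2 lies at chr7:78888277-78888373 on the plus strand, 7481 bp from Aen, the nearest protein-coding gene. Mir7b lies at chr17:56242988-56243098 on the plus strand, 13712 bp from Fem1a and close to a long noncoding RNA gene, AC026385.1. The hairpins are shown whole because the 5p strand is shared where the 3p strand is not. Capitals mark the 5p and then the 3p strand.
Mir7-1: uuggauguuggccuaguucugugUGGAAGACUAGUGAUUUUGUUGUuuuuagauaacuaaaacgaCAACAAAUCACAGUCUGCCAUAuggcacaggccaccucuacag
Mir7-2: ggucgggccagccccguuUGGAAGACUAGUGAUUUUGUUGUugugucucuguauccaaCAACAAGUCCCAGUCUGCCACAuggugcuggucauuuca
Mir7b: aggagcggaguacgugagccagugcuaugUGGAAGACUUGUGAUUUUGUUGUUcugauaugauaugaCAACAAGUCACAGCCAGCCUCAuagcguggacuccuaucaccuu

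The mature strands follow, with the seed in capitals.
miR-7a-5p, from Mir7-1 and Mir7-2: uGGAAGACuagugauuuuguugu
miR-7b-5p, from Mir7b: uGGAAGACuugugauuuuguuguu
miR-7a-1-3p, from Mir7-1: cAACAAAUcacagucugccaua
miR-7a-2-3p, from Mir7-2: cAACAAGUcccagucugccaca
miR-7b-3p, from Mir7b: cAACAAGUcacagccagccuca
Counted from 1 at the 5′ end, miR-7a-5p and miR-7b-5p differ by the substitution A10U over the 23 bases they can be compared on, and share the seed GGAAGAC. No other mature mouse microRNA of the RefSeq table has that seed. The mir-7a-1-5p and mir-7a-2-5p rows stand for the same mature sequence, and their ratio stayed between 1.03 and 1.12 in the 30 libraries. They are therefore not independent, and mir-7a-1-5p is given below for both unless the rows differ. How reads matching both hairpins were shared is not stated in the labels. The 3p strands do separate the hairpins: miR-7a-1-3p and miR-7a-2-3p differ by A7G, A10C and U21C.

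The 5p strands reached their highest group means in sorted Sox9-EGFP Low cells and stood between 1212 and 2292 RPMMM for mir-7a-1-5p in each library of the Negative, Lgr5-High, crypt and villus groups. In germ-free Low cells mir-7a-1-5p stood at 51461, 42537, 40105 and 38339 RPMMM in replicates 1 to 4. In chow Low cells it stood at 23664, 22428, 21150 and 45342 RPMMM, replicate 4 lying apart from the others. In conventionalized Low cells the values were 38185, 34957, 16940 and 20515 RPMMM. The ranges of these 3 neighbours in the order of means overlapped, except that all germ-free values lay above all conventionalized ones. Cd24-Low cells followed at 13842, 3795, 10847 and 25162 RPMMM, a spread that overlapped the conventionalized and chow Low values. Below a gap came Negative cells (1381 to 2292), villi (1212 to 2172), crypts (1254 to 2064) and Lgr5-High cells (1569 and 1247 RPMMM), whose ranges overlapped one another. The highest group mean was 30.6 times the lowest. In germ-free Low libraries mir-7a-1-5p ranked between 5 and 7 among the rows with plain names, and in Negative libraries between 33 and 43.

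mir-7b-5p spanned a wider range, with its highest group mean 477 times its lowest. It stood at 14193, 13125, 13477 and 12893 RPMMM in germ-free Low cells, and at 7539, 6632, 7277 and 14251 RPMMM in chow Low cells. Conventionalized Low cells held 9158, 8871, 4111 and 4952 RPMMM, and Cd24-Low cells 3547, 729, 2350 and 6170 RPMMM. All 4 of those groups lay above the others without overlap. Villi (71.2 to 147 RPMMM) and crypts (51.2 to 106) overlapped each other, and Lgr5-High cells held 53.2 ± 0.276 RPMMM (SD, n = 2). Negative cells were lowest at 19.9, 27.8, 41.9 and 22.8 RPMMM, below every Lgr5-High value. The library with the lowest value among Cd24-Low cells, replicate 2, was the lowest of that group for both 5p strands.

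**Figure D1:**
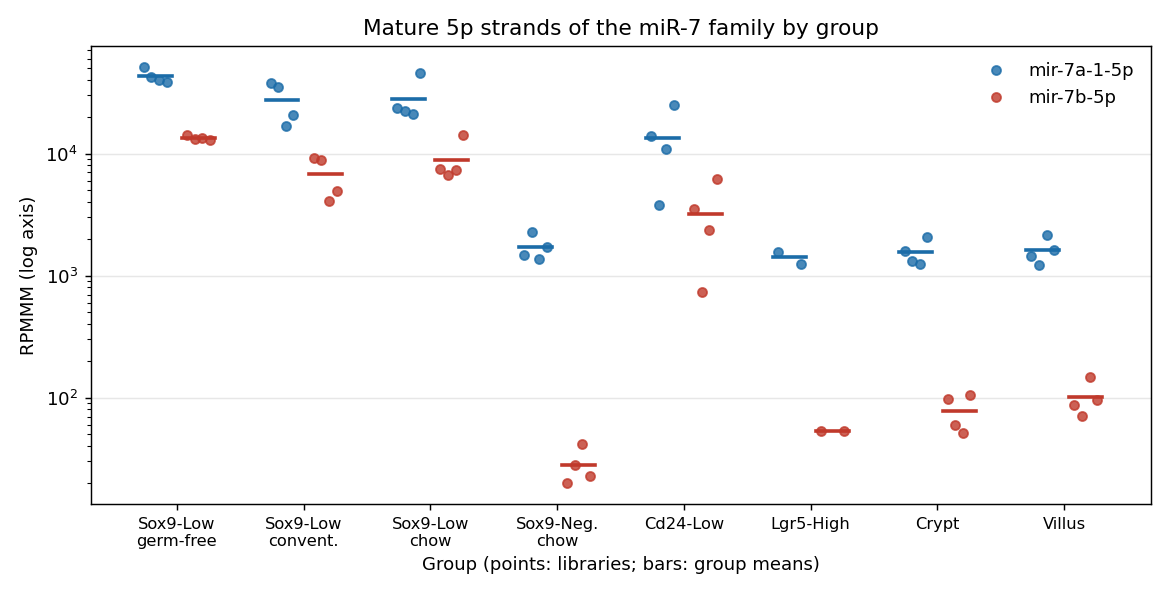
Level of mir-7a-1-5p and mir-7b-5p (RPMMM, log axis) in each of the 30 libraries by group, with bars at the group means. mir-7b-5p lies between 19.9 and 147 RPMMM in the Negative, Lgr5-High, crypt and villus groups and between 729 and 14251 in the others, while mir-7a-1-5p does not fall under 1212.

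The 3p strands of the mir-7a hairpins did not move together. mir-7a-2-3p, the strand made only from Mir7-2, stood at 674, 634, 557 and 523 RPMMM in germ-free Low cells. Its chow Low values were 244.1, 185, 270 and 348 RPMMM, and its conventionalized values 420, 292, 295 and 158 RPMMM. It was listed at 0 in all 4 Negative libraries and lay between 5.44 and 20.6 RPMMM in crypts and villi. In Cd24-Low cells it spanned 29.1 to 202 RPMMM, and the Lgr5-High libraries held 28.2 and 41.3 RPMMM. mir-7a-1-3p, from the hairpin inside Hnrnpk, spanned only 5.61 to 72.9 RPMMM over all 30 libraries, its highest group mean 4.93 times its lowest. Germ-free Low cells held 26.4, 31.0, 20.3 and 22.8 RPMMM of it, below the 57.4, 72.9, 62.3 and 37.9 RPMMM of conventionalized Low cells. mir-7b-3p was above 0 in 9 of 30 libraries and reached 15.04 RPMMM at most, so no comparison was made for it. Across the 30 libraries, log2(RPMMM + 1) of mir-7a-2-3p correlated with mir-7b-5p at r = 0.93, and that of mir-7a-1-3p at r = 0.60. These correlations are descriptions, since the libraries share groups and mice and the values are shares of a library.

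**Figure D2:**
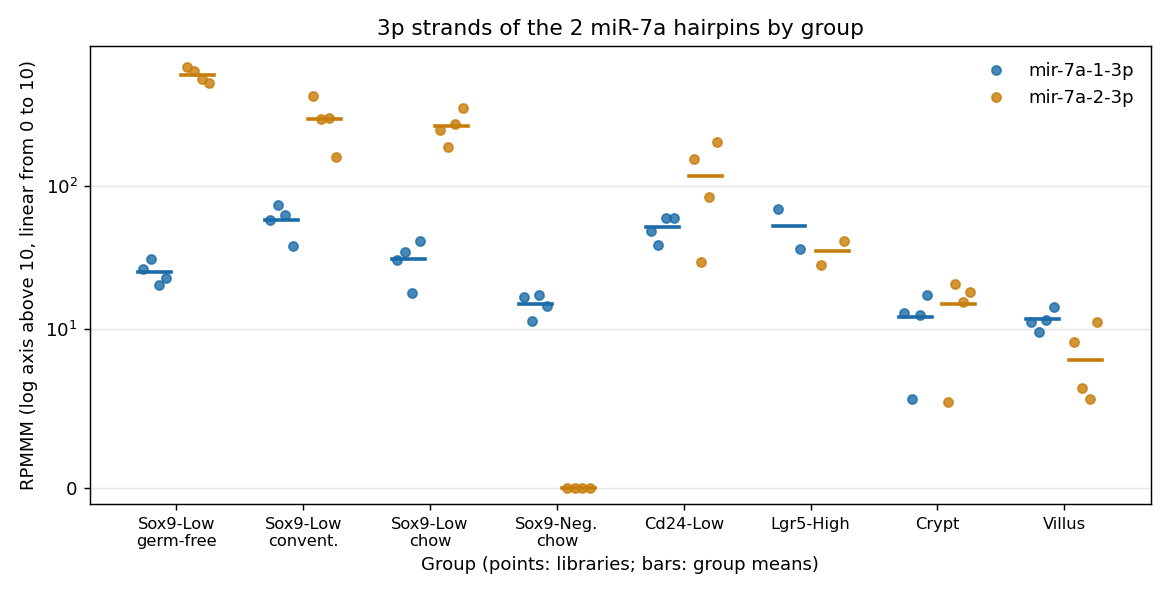
Level of mir-7a-1-3p and mir-7a-2-3p (RPMMM, log axis above 10 and linear from 0 to 10) in each of the 30 libraries by group, with bars at the group means. mir-7a-2-3p spans 0 in the 4 Negative libraries to 674 in a germ-free one, and mir-7a-1-3p spans 5.61 to 72.9.

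Chow Low cells were compared with the Negative cells of the same mice to ask in which sorted fraction the family is found. mir-7b-5p rose in Low cells, to 8925 ± 3571 RPMMM against 28.1 ± 9.76 (SD, n = 4 each), a ratio of means of 317. On the log2(RPMMM + 1) scale it differed by 8.24 (SE 0.33, limma adjusted p = 3.10e-07). mir-7a-1-5p rose less, to 28146 ± 11510 RPMMM against 1717 ± 410 (SD, n = 4 each), a ratio of 16.4 and a log2 difference of 3.99 (SE 0.29, limma adjusted p = 5.65e-06). Low values lay above Negative values in 4 of 4 mice for both strands. mir-7a-2-3p was listed at 0 in Negative cells, so no fold is given, and its log2 difference of 8.002 with 1 RPMMM added became 4.73 with 10 added (limma adjusted p = 3.10e-07 and 8.23e-07). mir-7a-1-3p had no test at the minimum mean of 50 RPMMM, and without that filter its difference of 0.95 had a limma adjusted p of 0.083. The minimum was met by 4 of 6 members, mir-7b-5p and mir-7a-2-3p only through their level in Low cells, and all 4 were called higher in Low cells. Of 221 rows tested, 63.8% were called, 47.1% higher and 16.7% lower in Low cells. In bulk libraries fewer cells of a type and less RNA per cell cannot be told apart. The median difference over all tested rows was 0.84, and -0.08 once libraries were rescaled by the median of ratios. With that scaling mir-7b-5p differed by 7.33 and mir-7a-1-5p by 3.06. The summed villus enterocyte microRNAs (mir-215-5p, mir-192-5p and mir-194-5p, 3 of 3 measured) held 659276 to 701947 RPMMM in Negative and 155136 to 215834 in chow Low libraries. Mesenchymal microRNAs (4 of 4) summed to 112 to 144.2 and 50.01 to 75.2 RPMMM, and leukocyte microRNAs (5 of 5) to 0 to 3.56 and 10.3 to 37.6. Of the mesenchymal rows, mir-145-5p and mir-214-3p were listed at 0 in all these libraries. So were mir-142-3p, mir-150-5p and mir-223-3p of the leukocyte rows, and mir-142-5p was listed at 0 in all Negative libraries. The part of these cell types in the differences was not tested. By the column names, chow Low libraries were read in lane 1 and Negative libraries in lanes 4 and 5. Germ-free replicates 3 and 4 and conventionalized replicates 1 and 2, which are Low cells read in those lanes, held 8871 to 13477 RPMMM of mir-7b-5p. The names give no run, so equal numbers may not be the same lane, and the part of lane in the difference was not tested.

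Lgr5-High cells were set against Cd24-Low cells, sorted on a receptor of intestinal stem cells and on a surface protein. mir-7b-5p was lower in the 2 Lgr5-High libraries, at 53.2 ± 0.276 RPMMM (n = 2) against 3199 ± 2293 (n = 4, SD), a ratio of means of 60.1. Its log2 difference was -5.51 (SE 0.73, limma adjusted p = 0.00141). mir-7a-1-5p was also lower, with a log2 difference of -2.97 (SE 0.64, limma adjusted p = 0.00893) and a ratio of 9.53. Neither strand overlapped between the groups. The share of all rows without such overlap is not given here, and 50.4% of all rows tested had an unadjusted p under 0.05. The minimum was met by 5 of 6 members, of which 3 were called lower, while 39.4% of 236 rows were called, 22.5% lower and 16.9% higher. mir-7a-2-3p differed by -1.43 (limma adjusted p = 0.160) and mir-7a-1-3p by -0.02 (limma adjusted p = 0.976), with overlapping values for both. Without Lgr5-High replicate 1 or 2 the mir-7a-1-5p call was lost (limma adjusted p = 0.0532 and 0.0735), while that of mir-7b-5p held at 0.0199 or less without any 1 library. mir-7a-2-3p met the minimum only through its mean in Cd24-Low cells (117 RPMMM, against 34.7 in Lgr5-High cells). Cd24-Low replicate 2, at 29.1 RPMMM, was the Cd24-Low library that lay among the Lgr5-High values of mir-7a-2-3p. Leaving that library out thus separates the groups, and it brought mir-7a-2-3p to -1.98 (limma adjusted p = 0.0101). A fit over all 8 groups also called mir-7a-2-3p (limma adjusted p = 0.0389). The summed leukocyte microRNAs (5 of 5 measured) spanned 28.2 to 2946 RPMMM in Cd24-Low and 40.1 to 46.3 in Lgr5-High libraries. Mesenchymal microRNAs (4 of 4) summed to 167 to 549 RPMMM in Cd24-Low and 3.54 to 7.48 in Lgr5-High libraries, and the endothelial mir-126-3p stood at 7.85 to 21.8 and 0 to 4.71. Both were lower in Lgr5-High libraries without overlap, as the 5p strands were. So were the summed villus enterocyte microRNAs (3 of 3 measured), at 365598 to 367405 RPMMM in Lgr5-High and 394370 to 565834 in Cd24-Low libraries. The part of these cells in the differences was not tested. Of the summed rows, mir-142-3p, mir-223-3p, mir-145-5p and mir-214-3p were listed at 0 in the Lgr5-High libraries. The Lgr5-High libraries carry lane 8 in their column names and the Cd24-Low columns carry no lane, so lane and group cannot be told apart.

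Crypts and villi were compared next, and none of the 3 members that met the minimum was called by limma or had an unadjusted p under 0.05. Crypts held 1559 ± 370 RPMMM of mir-7a-1-5p and villi 1610 ± 410 (SD, n = 4 each), a log2 difference of -0.04 (SE 0.23, limma adjusted p = 0.895). mir-7b-5p stood at 78.3 ± 27.0 and 100.5 ± 32.5 RPMMM (SD, n = 4 each), a log2 difference of -0.37 (SE 0.32, limma adjusted p = 0.395). In the same libraries 46.9% of 239 rows were called, 36.4% higher and 10.5% lower in crypts. The median difference of all rows was 0.39. Median-of-ratios scaling moved it to -0.07 and brought mir-7b-5p to -0.82 (limma adjusted p = 0.0391) and mir-7a-1-5p to -0.50 (limma adjusted p = 0.0730). Whether mir-7b-5p is called lower in crypts thus depended on the scaling. Dissected tissue holds other cells: the summed mesenchymal microRNAs (4 of 4 measured) reached 13593 to 25848 RPMMM in crypts and 5803 to 51961 in villi, against 50.01 to 75.2 in chow Low cells. Leukocyte microRNAs (5 of 5) summed to 933 to 2228 RPMMM in crypts and 216 to 361 in villi, and the villus enterocyte microRNAs to 74445 to 128554 and 280447 to 438034, both without overlap. Their part in the family's levels was not tested.

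The 3 groups of Low cells address the microbiota, and their comparisons share libraries with each other. Between germ-free and conventionalized cells, mir-7b-5p was higher in germ-free cells, at 13422 ± 567 against 6773 ± 2614 RPMMM (SD, n = 4 each). The ratio of means was 1.98 and the log2 difference 1.07 (SE 0.26, limma adjusted p = 0.00964). mir-7a-2-3p was higher too, at 597 ± 69.3 against 291 ± 107 RPMMM (SD, n = 4 each), with a log2 difference of 1.11 (SE 0.28, limma adjusted p = 0.0115). mir-7a-1-5p stood at 43110 ± 5827 against 27649 ± 10488 RPMMM (SD, n = 4 each), a log2 difference of 0.71 (SE 0.26) that missed the threshold (limma adjusted p = 0.0506). No germ-free value overlapped a conventionalized one for any of these strands. The share of all rows without such overlap is not given here, and 54.0% of all rows tested had an unadjusted p under 0.05. Of 6 members, 4 met the minimum and 2 were called higher, while 42.5% of 252 rows were called, 13.9% higher and 28.6% lower. mir-7a-1-3p did not meet the minimum. Without the filter it was lower in germ-free cells, at 25.1 ± 4.62 against 57.6 ± 14.6 RPMMM (SD, n = 4 each), a log2 difference of -1.15 (SE 0.30, limma adjusted p = 0.0282), opposite to the other strands. The mesenchymal microRNAs summed to 30.02 to 79.1 RPMMM in germ-free and 140.9 to 438 in conventionalized libraries, without overlap, and their part in the differences was not tested. Of their rows, mir-145-5p, mir-199a-1-3p and mir-214-3p were listed at 0 in all germ-free libraries, and mir-214-3p in all conventionalized ones.

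The conventionalized libraries carry column names of different kinds, and a split by those names was added after the values had been seen. Replicates 1 and 2, with names starting CVGF and read in lane 5, held 9158 and 8871 RPMMM of mir-7b-5p. Replicates 3 and 4, with names starting CD and read in lanes 1 and 3, held 4111 and 4952. Against replicates 1 and 2 alone, germ-free cells differed by 0.57 for mir-7b-5p and 0.23 for mir-7a-1-5p on the log2 scale. Against replicates 3 and 4 alone the differences were 1.57 and 1.20. Since those replicates held the lower values, the larger difference follows from the split and is given with no test. Median-of-ratios scaling and leaving out conventionalized replicate 1 or 2 each brought mir-7a-1-5p past the threshold, with limma adjusted p of 0.0293, 0.0238 and 0.0370. Those replicates held the group's higher values, so leaving either out enlarges the difference. Other settings moved mir-7a-1-5p away from the threshold. The limma adjusted p was 0.129 with all 8 groups in 1 fit and 0.0954 without the filter. It was 0.0719 to 0.1155 without any 1 germ-free library or conventionalized replicate 3 or 4. The germ-free libraries carry lanes 1, 2 and 4 in their column names, and the part of lane in these differences was not tested.

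Against chow Low cells the picture was weaker. Conventionalized cells differed from chow cells by -0.41 for mir-7b-5p (SE 0.34, limma adjusted p = 0.371) and -0.03 for mir-7a-1-5p (SE 0.33, limma adjusted p = 0.945). Without chow replicate 4 these differences were -0.16 and 0.22 (limma adjusted p = 0.732 and 0.604). None of the 4 members that met the minimum was called or had an unadjusted p under 0.05, while 22.6% of rows were called, 15.2% higher and 7.41% lower. Germ-free cells differed from chow cells by 1.21 for mir-7a-2-3p (SE 0.23, limma adjusted p = 0.0166), with no overlap between 523 to 674 and 185 to 348 RPMMM. That was 1 call among 4 members that met the minimum, where 5.44% of 239 rows were called, 1.67% higher and 3.77% lower. It was lost without germ-free replicate 2 or 3 or chow replicate 1, with limma adjusted p of 0.0667, 0.0559 and 0.0592, and in 1 fit over all 8 groups (0.0635). mir-7b-5p differed by 0.66 and mir-7a-1-5p by 0.68 (limma adjusted p = 0.134 for both). Both were called once chow replicate 4 was left out, at 0.91 and 0.94 (limma adjusted p = 0.00804 for both). That library held the highest chow values of both strands, so leaving it out enlarges the differences and narrows the chow spread.

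**Figure D3:**
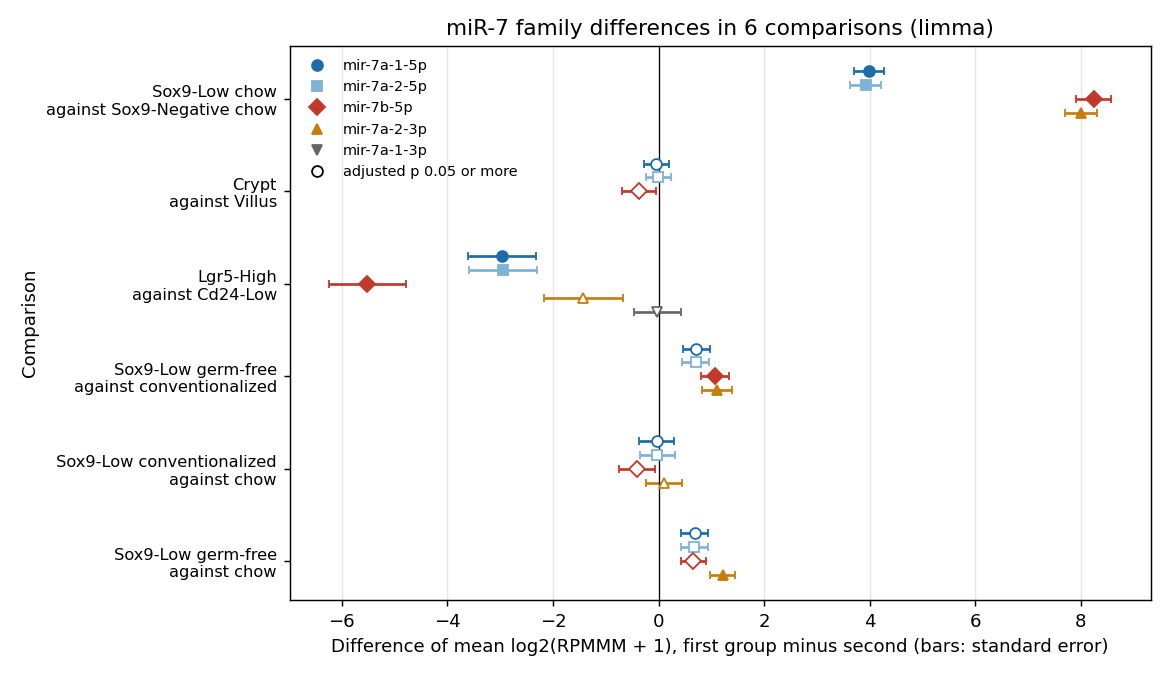
Difference of mean log2(RPMMM + 1) with its standard error for the members that met the minimum in each of 6 comparisons, first group minus second. Filled symbols had a limma adjusted p under 0.05. In the Low against Negative and the Lgr5-High against Cd24-Low comparisons mir-7b-5p (8.24 and -5.51) lies farther from 0 than mir-7a-1-5p (3.99 and -2.97).

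The balance between miR-7b-5p and miR-7a-5p was compared within libraries, since a ratio of rows does not depend on how a library was scaled. mir-7b-5p made up 22.8% to 25.6% of mir-7a-1-5p plus mir-7b-5p in chow Low cells and 21.6% to 25.2% in germ-free Low cells. Its share was 19.3% to 20.2% in conventionalized Low cells and 16.1% to 20.4% in Cd24-Low cells. In crypts it was 3.92% to 5.68%, in villi 5.54% to 6.33%, in Lgr5-High cells 3.29% and 4.08%, and in Negative cells 1.20% to 2.95%. The 4 groups with high family levels thus held the larger shares, with no overlap with the others. The mean log2 ratio of mir-7b-5p to mir-7a-1-5p differed by 4.28 between chow Low and Negative cells, by 0.36 between germ-free and conventionalized cells and by -0.38 between conventionalized and chow cells. In each of these 3 comparisons the groups did not overlap. Each had a two-sided exact permutation p of 0.0286, which is the smallest p with 70 relabelings, or 0.0571 adjusted over the 6 comparisons. Low and Negative libraries share mice. Permuted within the 4 mice, whose differences ran from 3.49 to 4.58, that comparison had an exact p of 0.125, the smallest p with 16 relabelings. Lgr5-High and Cd24-Low cells differed by -2.56, with an exact permutation p of 0.0667, the smallest p with 15 relabelings. Germ-free and chow cells differed by -0.02 (exact permutation p = 0.771), and crypts and villi by -0.33 (exact permutation p = 0.0857). Crypt replicate 1 was the crypt library whose log2 ratio lay among those of the villi (-4.05 against -4.08 to -3.88). Leaving it out thus separates crypts from villi, with a difference of -0.43. The adjusted exact permutation p of 0.0429 then rests on the smallest p for those libraries.

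The ratio of mir-7a-2-3p to mir-7a-1-3p, added after the values had been seen, compared the strands that separate the mir-7a hairpins. mir-7a-2-3p was 20.5 to 27.4 times mir-7a-1-3p in germ-free Low cells, 5.42 to 15.2 times in chow Low cells and 4.01 to 7.32 times in conventionalized Low cells. In Cd24-Low cells the ratio spanned 0.754 to 3.38, in crypts 0.421 to 3.67, in villi 0.483 to 0.814, and the Lgr5-High libraries stood at 0.411 and 1.13. The germ-free ratio did not overlap the others. Its log2 difference from conventionalized cells was 2.27 and from chow cells 1.46, each with an exact permutation p of 0.0286 and an adjusted value of 0.0714 over 5 comparisons. Both strands were read from their plain rows, and the ratio with the suffixed rows added was not tested. Strand counts say nothing of the mature miR-7a-5p each hairpin contributes.

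**Figure D4:**
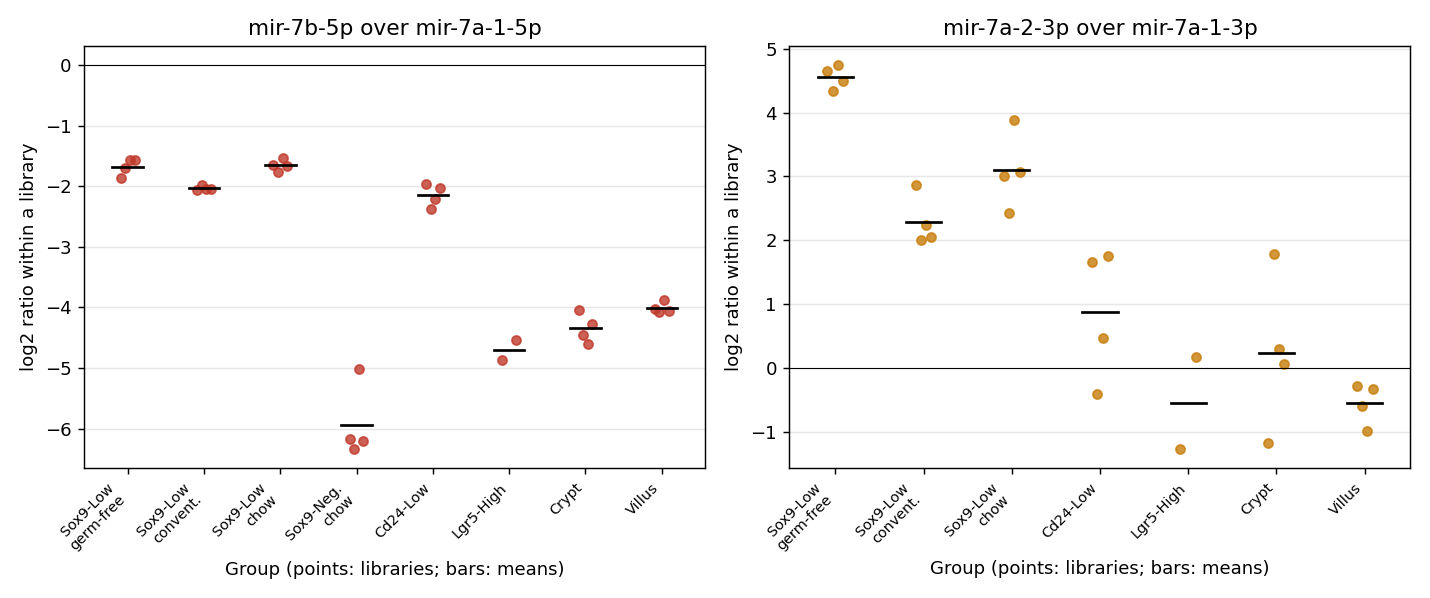
Log2 ratio of mir-7b-5p to mir-7a-1-5p (left) and of mir-7a-2-3p to mir-7a-1-3p (right) in each library, with bars at group means and 0.5 RPMMM added to each value. Negative cells, where mir-7a-2-3p is listed at 0, are left out on the right. The left ratio lies between -2.38 and -1.54 in Low and Cd24-Low cells and between -6.34 and -3.88 in the other groups.

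In the authors' deposited table of APC mutant against control intestine, mir-7b-5p was the member that was called. The authors' deposited table gives mir-7b-5p an average of 258 in mutant and 3753 in control samples, a log2 fold change of -3.86 (SE 0.48, adjusted p = 1.06e-13). It ranked 13 by adjusted p among the 1060 rows, of which 20.3% were called, 6.32% lower in mutant samples. In the authors' deposited table mir-7a-1-5p averaged 30494 and 34460, a log2 fold change of -0.18 (adjusted p = 0.993). There mir-7b-5p was thus 0.84% of mir-7a-1-5p plus mir-7b-5p in the mutant and 9.82% in the control averages of the authors' deposited table. mir-7a-2-3p averaged 15.8 and 116 in the authors' deposited table, with a log2 fold change of -2.87 and a standard error of 2.47 (adjusted p = 0.521). mir-7a-1-3p averaged 578 and 550 there, a log2 fold change of 0.07 (adjusted p = 0.993), and mir-7b-3p is not listed. mir-375-3p was also called lower in the authors' deposited table, at 10292 against 33095 (log2 fold change -1.69, adjusted p = 0.0009), and the part of endocrine cell content in the mir-7b-5p difference was not tested. These averages rest on 2 samples per group with no value per sample, on a scale that was not set against RPMMM.

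Outside the family, the rows whose log2(RPMMM + 1) was most like mir-7b-5p over the 30 libraries were named by a rule, among 160 rows with a mean of at least 50 RPMMM. They were mir-184-3p (r = 0.91), mir-1224-5p (0.87), mir-26a-2-5p and mir-26a-1-5p (0.86 each, copies of 1 mature sequence name), mir-205-5p (0.84) and mir-375-3p (0.84). mir-7a-1-5p itself reached r = 0.98. mir-375-3p, the subject of the series and a known islet microRNA, stood at 106618 to 198437 RPMMM in germ-free Low cells and 414 to 631 in Negative cells. It stood at 18945 and 20943 RPMMM in Lgr5-High cells, within its range of 15047 to 35422 in Cd24-Low cells, where the miR-7 5p strands did not overlap and the mir-7a 3p strands did. mir-184-3p was listed at 0 in each Negative and Lgr5-High library and at 244.4 to 1253 RPMMM in chow Low cells. A list of 14 endocrine or neuronal microRNAs was described beside them. In germ-free against conventionalized cells 8 met the minimum and 5 were called higher (mir-375-3p, mir-184-3p, mir-153-3p, mir-132-3p and mir-1224-5p), where 13.9% of all rows were called higher. mir-153-3p met the minimum only through its germ-free level (84.5 against 23.1 RPMMM). The uncalled mir-218-1-5p met it only through its conventionalized level (35.4 against 66.0 RPMMM). The median log2 difference of the 8 was 1.11, beside -0.18 over all 252 rows. In germ-free against chow cells limma called 0 of 7, with 2 at an unadjusted p under 0.05. Over all rows there 5.44% were called and 28.5% had an unadjusted p under 0.05. In Lgr5-High against Cd24-Low cells limma called 0 of 3, with 1 at an unadjusted p under 0.05. Over all rows there the shares were 39.4% and 50.4%. In conventionalized against chow cells 2 of 6 were called lower, where 7.41% of all rows were called lower.

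Matched mRNA libraries exist for the 12 mice of the chow, germ-free and conventionalized groups, and those libraries held stem and enteroendocrine messages among others. The 21 enteroendocrine marker genes summed to 654328 to 1414204 normalized counts in germ-free, 149002 to 360099 in conventionalized and 407284 to 1394293 in chow libraries. In germ-free against conventionalized cells, 10 of the 21 were called higher and none lower, with a median log2 difference of 1.93 beside 0.11 over all genes, of which 1.95% were called higher. These calls rest on few libraries. Without germ-free replicate 1 none of the 21 and 1 of all genes was called, and without conventionalized replicate 3, as the small RNA libraries are numbered, 5 of the 21 were called. The 9 stem cell markers summed to 11497 to 65693 normalized counts in germ-free, 56710 to 116209 in conventionalized and 55497 to 109631 in chow libraries. None of the 9 was called by limma between germ-free and conventionalized cells, though 7 had an unadjusted p under 0.05 and all 9 differences were negative. Over all genes 20.1% had an unadjusted p under 0.05 in that comparison. Cycling genes (8 of 8 measured) summed to 1961 to 10144 in germ-free and 14989 to 19215 in conventionalized libraries. Of these, 2 were called lower, a count of 0 to 6 when 1 library was left out, where 0.292% of all genes were called lower. Stromal or endothelial genes (7 of 7 measured, 5 tested) summed to 1024 to 2015 and 320.5 to 566. Of these, 1 was called higher, a count of 0 or 1 when 1 library was left out, where 1.95% of all genes were called higher. In conventionalized against chow cells, without the germ-free libraries, 2 of the 7 met the minimum, so which genes were tested depended on the germ-free level. Tuft genes (10) summed to 5664 to 12156 in germ-free, 1171 to 11214 in conventionalized and 13140 to 29430 in chow libraries. In that order Paneth genes (6) summed to 39790 to 206338, 74727 to 118279 and 57304 to 573426. Goblet genes (7) summed to 48726 to 111983, 17555 to 586627 and 64248 to 238557. Tuft medians against chow cells were -1.34 in germ-free and -2.25 in conventionalized cells. In each, limma called 0 of 10, with 9 at an unadjusted p under 0.05. In the same order limma called 0.0% and 0.0948% of all genes, and 27.5% and 11.2% had an unadjusted p under 0.05. Replicates of mRNA libraries are numbered in the text by the mouse's small RNA library. Among germ-free mice, the order by mir-7b-5p was that by enteroendocrine sum in all 4. In conventionalized mice, replicates 1 and 2 held the higher values of both (336329 and 360099 against 206356 and 149002 normalized counts). In chow mice the highest enteroendocrine sum, 1394293 in replicate 3, came with 7277 RPMMM of mir-7b-5p, and replicate 4, with 14251 RPMMM, held 879551. The part of these cell contents in the family's differences was not tested.

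**Figure D5:**
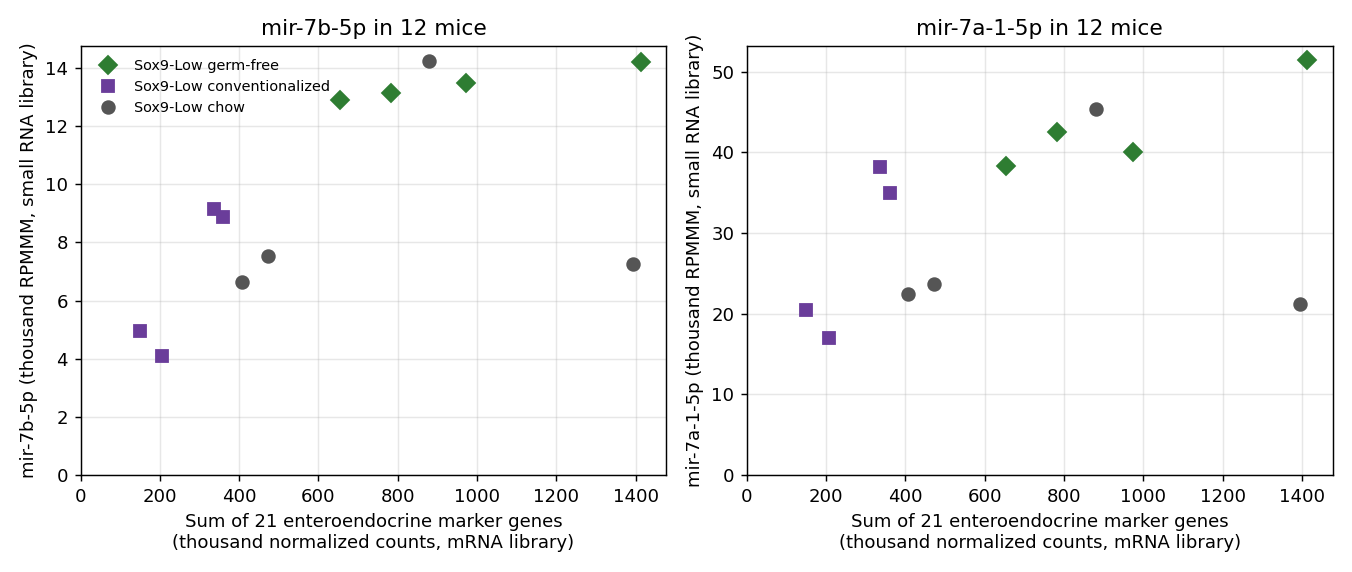
mir-7b-5p (left) and mir-7a-1-5p (right, both in RPMMM, on axes scaled as their labels say) against the summed normalized counts of 21 enteroendocrine marker genes in the 12 mice with both kinds of library. All 4 conventionalized mice have sums of 360099 or less. Chow replicate 3 has a sum of 1394293 with a mir-7b-5p level of 7277.

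The family's own regulators were read in the same mRNA libraries. Hnrnpk, the host gene of Mir7-1, stood at 8774, 10492, 4831 and 8205 normalized counts in germ-free and 9301, 12442, 13423 and 10949 in conventionalized cells. The values overlapped, and the log2 difference was -0.56 (SE 0.32, limma adjusted p = 0.324). 1700020I14Rik, known as Cyrano, is a long noncoding RNA that pairs with miR-7 and triggers its decay. It stood at 362, 511, 255 and 514 normalized counts in germ-free and 518, 731, 679 and 657 in conventionalized cells. Those groups did not overlap, but the log2 difference of -0.70 (SE 0.28) was not called (limma adjusted p = 0.207). Zswim8, part of the ligase that carries out such decay, differed by 0.64 (limma adjusted p = 0.258). Elavl1 and Msi2, whose proteins hold back processing of the Mir7-1 hairpin, differed by -0.54 and 0.35 (limma adjusted p = 0.254 and 0.650). Rows named Mir7-1, Mir7-2 and Mir7b reached at most 2.39 normalized counts in these 12 libraries and were not tested. None of the 5 regulators tested was called in any of the 3 mRNA comparisons, and 1, in germ-free against conventionalized cells, had an unadjusted p under 0.05. Over all genes 2.24%, 0.0948% and 0.0% were called, and 20.1% had an unadjusted p under 0.05 in germ-free against conventionalized cells.

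Messages reported as miR-7 targets were taken from a list of 31. Of these, 23 carry GTCTTCC, the DNA letters of the site for the shared seed, in their longest annotated 3′ untranslated region (read on the message strand, GENCODE vM21), and 11 carry GTCTTCCA, which contains it. Among all 21685 genes with such a region the shares were 11.6% and 3.43%, but the listed regions were longer, with a median of 1559 against 920 bases. A match of letters is a description and not a shown site. Between germ-free and conventionalized cells 29 targets were tested and 1 was called, where 2.24% of 20214 genes were called, 1.95% higher and 0.292% lower. It was Cplx1, which encodes a protein of regulated vesicle release, and it rose in germ-free cells. Its values were 652, 286, 477 and 166 normalized counts in germ-free cells against 147, 115, 50.3 and 49.0 in conventionalized cells, a log2 difference of 2.10 (SE 0.49, limma adjusted p = 0.0474). That call was lost in 6 of the 8 fits that left out 1 library, without germ-free replicate 1, 2 or 3 or conventionalized replicate 2, 3 or 4 (limma adjusted p = 0.0519 to 0.153). It was also lost after median-of-ratios scaling (limma adjusted p = 0.0554). Of the 29, 9 had an unadjusted p under 0.05, against 20.1% of all genes. A positive difference was found for 16 and a negative one for 13, with a median of 0.02 beside 0.11 over all genes. None was called between conventionalized and chow cells (9 with an unadjusted p under 0.05) or between germ-free and chow cells (3), where limma called 0.0948% and 0.0% of all genes and 11.2% and 27.5% had an unadjusted p under 0.05. In the former the largest differences were those of Basp1 (-2.07), Cplx1 (-2.05) and Pax6 (-1.41, a transcription factor of endocrine cells), with limma adjusted p of 0.176, 0.196 and 0.265. In the latter they were those of Ccne1 (-1.66, a cyclin), Igf1r (1.59, a growth factor receptor) and Rps6kb1 (-0.94, a kinase of the mTOR pathway), with limma adjusted p of 0.476, 0.0982 and 0.108. The difference of Ccne1 was 0.39 without germ-free replicate 3.

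Over all genes, the seed site was described in the same way, as an addition made after the values had been seen. The seed-site groups showed no common order over the 3 comparisons. In germ-free against conventionalized cells, 607 tested genes with GTCTTCCA had a median log2 difference of -0.06, with 2 called lower and 7 higher. The 1472 genes with GTCTTCC but not the longer match had a median of 0.01, with 3 called lower and 37 higher. The 13293 genes with neither had a median of -0.02, with 51 called lower and 336 higher. In the same order the medians were 0.05, 0.03 and -0.0001 in conventionalized against chow cells, with 2, 1 and 12 called, and -0.10, -0.06 and -0.13 in germ-free against chow cells, with none called by limma. These were groups of genes whose median 3′ untranslated region was 2440, 2346 and 989 bases long.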

How the data were processed

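Small RNA was measured in 30 libraries (TriLink CleanTag kit, per the labels) and mRNA in 12 of the libraries used here (per the labels, SMARTer Ultra Low and Nextera XT). The deposited small RNA values, named RPMMM by the authors, sum to 1000000 per library and were treated as RPM. The deposited mRNA values are normalized counts, a signal scaled by the authors per library. The authors' deposited APC table gives log2 fold changes, p-values and a mean signal per group. The submitters' processing notes name STAR, Salmon, DESeq2, Cell Ranger and mm10, without roles; the sources used here do not say how reads were assigned to hairpins. Of the small RNA columns, 4 match no sample and were not used, and 381 of 48440 mRNA rows without a gene name were left out, 0.0338% to 0.0804% of a library.

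Groups were compared with limma 3.58.1 in R 4.3.3 (lmFit, eBayes with a trend, tested on simulated data) on log2(value + 1), only the 2 groups compared in each fit, for rows with a mean of at least 50 RPMMM or genes with at least 10 normalized counts. Calls are Benjamini-Hochberg adjusted p under 0.05, two-sided, over all rows tested. Fold changes on this scale understate those of low rows. Ratios were compared with exact permutation tests, with 0.5 RPMMM added. Every member is named. Targets are named where called, otherwise the 3 with the largest difference in a comparison. The 6 rows most like mir-7b-5p are those with the highest Pearson r. The members and lists were chosen with earlier results of these data known. Labels do not say that crypt, villus, Cd24-Low and Lgr5-High replicates came from separate mice; p-values then measure only the spread between samples. Low and Negative libraries share mice, so their replicate numbers pair them: deviations of same-numbered libraries correlated at 0.147, 0.0998, 0.202 and -0.202, and the block changed no call on the members there. Alternatives were another scaling, pseudocount and filter, all groups in 1 fit, a replicate block and leaving out each library; a permutation within mice was added later. Python 3.11.15, numpy 2.4.6, pandas 2.3.3 and matplotlib 3.10.9 were used. Sequences and hairpin positions come from RefSeq (GRCm38.p6), 3 of 3 hairpins matched, and gene neighbours from GENCODE vM21.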

Additional observations from a re-analysis of the deposited data

Results flagged for a closer look

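In chow Low cells, replicate 4 stood apart from the other 3 libraries for the 5p strands. It held 45342 RPMMM of mir-7a-1-5p against 21150 to 23664 in the others, a gap of 0.896 of the group's range. For mir-7a-2-5p, which counts the same mature sequence, it held 42079 against 18854 to 21837, a gap of 0.872. For mir-7b-5p it held 14251 against 6632 to 7539, a gap of 0.881. In Negative cells, replicate 3 had a log2 ratio of mir-7b-5p to mir-7a-1-5p of -5.03 against -6.34 to -6.17 in the others, a gap of 0.873. This is the chow mouse whose columns name a high fat diet. Each gap exceeded Dixon's critical value for 4 libraries, and chance flags about 1 in 20 of the 48 sets tested. Values without chow replicate 4 stand beside the comparisons they change.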

How the results depend on the processing

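No called member changed direction under any alternative. Median-of-ratios scaling brought mir-7b-5p in crypts against villi to -0.82 and mir-7a-1-5p in germ-free against conventionalized cells to 0.87, both past the threshold; it turned mir-7a-2-3p in conventionalized against chow cells to -0.068, a difference not called either way, and left 25 rows called there instead of 55. The replicate block, which outside the Low and Negative fractions pairs libraries by number alone (deviations of same-numbered germ-free and conventionalized libraries correlated at -0.376, -0.129, -0.548 and 0.169), brought mir-7a-1-5p past the threshold in germ-free against conventionalized cells (0.71), turned the uncalled mir-7a-1-3p in Lgr5-High against Cd24-Low cells to 0.21, and gave 35 called rows for 13 in germ-free against chow cells. For mRNA the block gave 165 called genes for 17 in conventionalized against chow cells and 2907 for 0 in germ-free against chow cells, with 1 and 2 listed genes called. In germ-free against conventionalized mRNA it left 0 listed genes called for 1, as did median-of-ratios scaling. Without the filter 336 rows were called for 141 (Low against Negative), 173 for 112 (crypts against villi), 186 for 93 (Lgr5-High against Cd24-Low) and 31 for 13 (germ-free against chow), and 39 genes for 17 and 1 for 0 (conventionalized and germ-free against chow). With all 8 groups in 1 fit, 98 rows were called for 55 in conventionalized against chow cells. With conventionalized replicates 3 and 4 alone, chosen after seeing the data, 59 rows were called for 107, and mir-7a-1-5p differed by 1.20.

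Leaving out 1 library gave these ranges. In crypts against villi, mir-7a-1-5p ran from -0.19 to 0.11 and mir-7a-2-5p from -0.15 to 0.16, the 5p ratio from -0.43 to -0.25 and the 3p ratio from 0.28 to 1.27. In Lgr5-High against Cd24-Low cells, mir-7a-1-5p ran from -3.48 to -2.57, mir-7a-1-3p from -0.15 to 0.43, and called rows from 54 to 113. In germ-free against conventionalized cells, mir-7a-1-5p ran from 0.51 to 0.90. In conventionalized against chow cells, mir-7a-1-5p ran from -0.22 to 0.22, mir-7a-2-5p from -0.20 to 0.24, mir-7a-2-3p from -0.10 to 0.37, and called rows from 7 to 67. In germ-free against chow cells, mir-7a-1-5p ran from 0.57 to 0.94, mir-7b-5p from 0.54 to 0.91, called rows from 5 to 68, and the 5p ratio from -0.055 to 0.040. For mRNA, called genes ran from 1 to 684 and listed genes called from 0 to 2 in germ-free against conventionalized cells, the count of 1 without germ-free replicate 1. Called genes ran from 0 to 6 in conventionalized against chow cells, where 1700020I14Rik ran from -0.035 to 0.20. Ccne1 ran from -2.39 to 0.39 in germ-free against chow cells. With 2 Lgr5-High libraries, a fit without either assumes that the lone library varies like the others. Rows listed at 0 lie below a minimum, which limits mir-7b-3p and mir-7a-2-3p.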
